A study of Mus musculus with 4 samples.

Results

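Axon guidance ligands and receptors are the secreted or membrane-bound cues that steer growing axons and migrating cells, together with the receptors that read them. The gene names on the arrays were searched for ephrins and their Eph receptors, semaphorins with their plexin and neuropilin receptors, Slits and Robo receptors, and netrins with the Unc5 and Dcc receptors. The search found 54 genes with 2228 probes, out of 17649 genes with a usable window and 462572 probes with a gene name, and all 54 gave a value. Dcc, and members of these families that are not named below, were not analysed here. Chromatin immunoprecipitation on promoter arrays (ChIP-on-chip) measured Ring1B, which attaches ubiquitin to histone H2A within Polycomb repressive complex 1 (PRC1). Fibroblasts came from mouse embryos of the C57BL/6 strain, taken at embryonic day 12.5 and used at passage 2. They were either homozygous for Phc2 L307R, a change in the polymer-forming SAM domain of a PRC1 subunit, or wild type. The labels name neither a transgene nor a treatment, and do not give the number of embryos behind a culture. The comparison asks whether Ring1B stays at these promoters when Phc2 is altered, since the title of the study links SAM domain polymerisation to PRC1 clustering and silencing.

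Ephrins are bound to the membrane by a lipid anchor (A class) or a transmembrane segment (B class), and signal to Eph receptor tyrosine kinases on the neighbouring cell. Class 3 semaphorins are secreted and act through neuropilins and plexins, while most other semaphorins stay in the membrane and bind plexins directly. Slits repel axons through Robo receptors, and netrins attract through Dcc or repel through Unc5. Outside the nervous system the same genes pattern vessels, limbs and other mesenchyme, and many developmental genes with CpG-rich promoters are held by Polycomb complexes where they are silent.

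There were 4 arrays, of 2 designs that share 0 probes, so a promoter has a single array of each genotype. The spread between cultures is therefore unknown, no test was possible and no p-value is reported. Each value is the log2 ratio of Ring1B immunoprecipitate over input, centred on the median of its array, averaged over the window of 3 neighbouring probes that was highest in the mean of both genotypes. The SD beside a value is over those 3 probes. Promoters whose window reached 1 were called bound, and a bound promoter was called higher or lower in Phc2 L307R where the difference was at least 1 (2-fold) and its sign was shared by all 3 probes. The input channel stood well above background for 74.97% and 76.3% of all probes on the Phc2 L307R arrays, against 85.7% and 86.7% on the wild-type arrays. The genotypes were scanned on different days, so scan day and genotype cannot be told apart. The wild-type values also exist in a second form, in the deposited value tables. Over all probes the tables correlated with the scanner ratios at 0.999 for both Phc2 L307R arrays, against 0.854 and 0.890 for the wild-type arrays.

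In the values reported here, Ring1B was found at most of these promoters in both genotypes, at moderate height. In Phc2 L307R fibroblasts 41 of the 54 promoters were bound, 75.9%, against 39.3% of all promoters. In wild-type fibroblasts 35 were bound, 64.8%, against 45.4% of all promoters. At least 2 (log2) was reached by 18 of the 54 in Phc2 L307R and by 14 in wild type, where 7.49% and 8.22% of all promoters did so. No member reached 3 in Phc2 L307R, and only Ntn1 and Epha3 did in wild type. Hox genes, given for scale, had medians of 2.67 in Phc2 L307R and 2.92 in wild type over 33 promoters, whereas the medians over the 54 members were 1.53 and 1.31 and those over all promoters 0.80 and 0.90. After normexp background correction 21 members were bound in Phc2 L307R and 26 in wild type, where 13.1% and 24.8% of all promoters were.

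The members were tiled by more probes than most genes, with a median of 38.5 probes against 26 over all genes, which gives more windows to choose from. Averaging every probe of a gene makes no such choice. By this measure the members had medians of 0.26 in Phc2 L307R and 0.31 in wild type, against 0.062 and 0.0815 over all 18354 named genes, and 8 members reached 1 in each genotype, where 4.89% of those genes did so in Phc2 L307R and 5.7% in wild type. These were Epha3, Epha7, Sema3c, Sema6a, Ntn1, Nrp1 and Nrp2 in both, with Sema3a in Phc2 L307R and Epha4 in wild type. Lists of genes typical of other functions are given for comparison. Of 14 genes typical of fibroblasts that had a window, 12 were bound in each genotype, with medians of 2.42 in Phc2 L307R and 2.17 in wild type, among them Vim at 2.67 and 2.95. Of 8 neuronal genes, 4 were bound in Phc2 L307R and 6 in wild type, with medians of 0.96 and 1.26. Gene expression was not measured on these arrays.

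**Figure D1:**
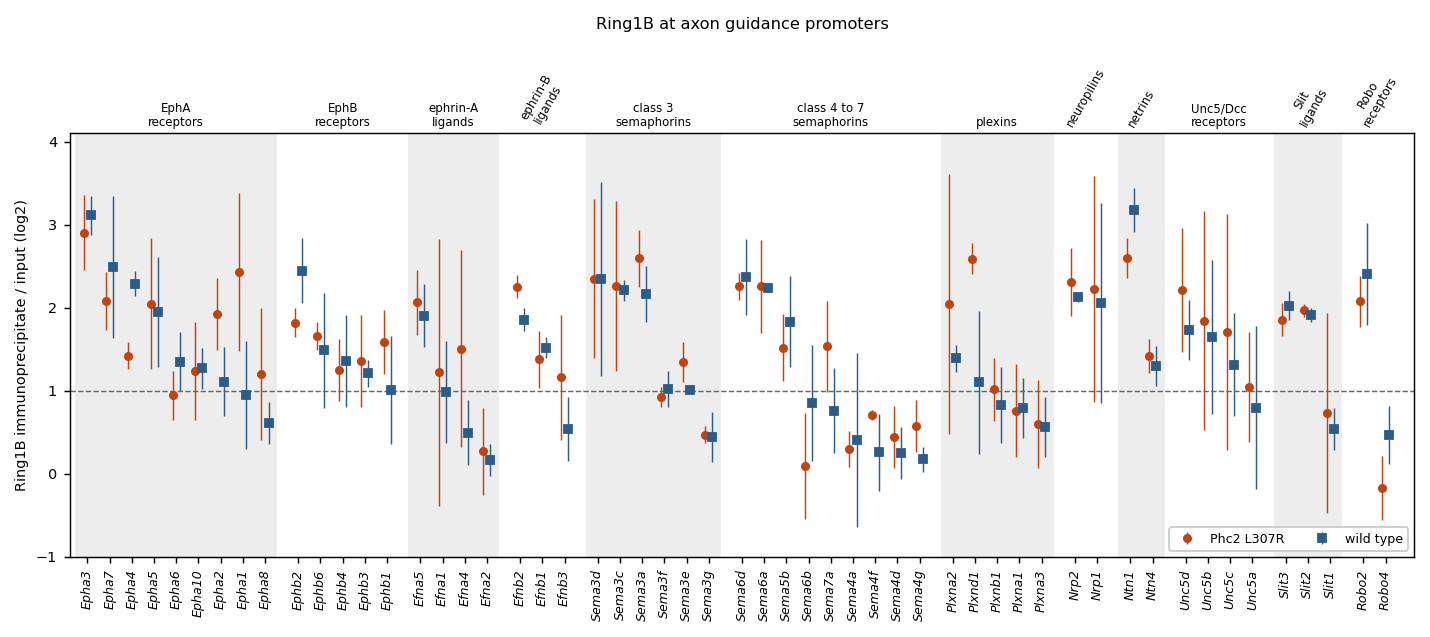
Ring1B immunoprecipitate over input (log2, vertical axis) at the 54 promoters, by family and ordered within a family by the wild-type value; circles are Phc2 L307R, squares wild type, bars the SD over 3 probes, and the dashed line the bound threshold of 1. Ntn1 and Epha3 stand highest in wild type at 3.17 and 3.11, and the class 4 semaphorins all lie below 1.

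The 250 bases before the transcription start were available for 47 of the 54 members (RefSeq, GRCm38.p6), and 4 are shown here to give the range from CpG-rich and bound to CpG-poor and unbound. CpG dinucleotides, the sequence feature that many Polycomb-bound promoters share, are in capitals.
Epha3: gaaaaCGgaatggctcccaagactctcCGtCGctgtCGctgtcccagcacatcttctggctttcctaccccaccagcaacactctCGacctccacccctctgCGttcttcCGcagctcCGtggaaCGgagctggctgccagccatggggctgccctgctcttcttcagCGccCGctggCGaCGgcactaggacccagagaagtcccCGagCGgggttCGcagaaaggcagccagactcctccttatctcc
Nrp2: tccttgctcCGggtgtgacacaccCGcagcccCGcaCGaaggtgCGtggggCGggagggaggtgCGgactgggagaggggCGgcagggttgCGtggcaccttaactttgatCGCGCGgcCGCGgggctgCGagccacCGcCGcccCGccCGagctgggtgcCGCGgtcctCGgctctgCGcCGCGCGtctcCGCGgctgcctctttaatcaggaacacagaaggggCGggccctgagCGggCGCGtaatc
Epha1: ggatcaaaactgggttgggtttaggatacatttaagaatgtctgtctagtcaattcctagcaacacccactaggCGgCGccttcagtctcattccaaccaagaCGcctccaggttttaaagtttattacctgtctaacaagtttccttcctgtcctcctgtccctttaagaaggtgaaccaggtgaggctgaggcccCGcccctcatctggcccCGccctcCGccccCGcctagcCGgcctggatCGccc
Robo4: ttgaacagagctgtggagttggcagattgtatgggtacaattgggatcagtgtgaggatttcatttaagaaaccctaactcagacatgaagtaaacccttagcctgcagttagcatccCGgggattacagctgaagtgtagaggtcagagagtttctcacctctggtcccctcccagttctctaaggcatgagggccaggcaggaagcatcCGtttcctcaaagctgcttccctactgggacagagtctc
The Epha3 sequence lies at chr16:63864176-63864425 on the minus strand and holds 16 CpG, more than 74.6% of all 250-base promoter sequences in the table. That of Nrp2 lies at chr1:62703067-62703316 on the plus strand and holds 32, more than 95.4% of them. The Epha1 sequence, at chr6:42373269-42373518 on the minus strand, holds 9 (more than 59.7%), and the Robo4 sequence, at chr9:37401722-37401971 on the plus strand, holds 2 (more than 18.8%). The sources used here do not give the build of the array positions, so the probes could not be placed on these sequences.

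The members had more CpG than the average gene, with a median of 16 in 250 bases against 12 over 12823 genes with a sequence, averaged where a gene has several starts. Among the 18 members with at least 20 CpG, 16 were bound in Phc2 L307R and 13 in wild type, against 57.8% and 66.1% of all promoters with as many. Among the 5 with fewer than 5 CpG, 2 were bound in each genotype, namely Sema3a with 2 CpG and Sema3d with 4, against 13.5% in Phc2 L307R and 11.9% in wild type of all such promoters. CpG count and Ring1B level were only weakly related among the members. Spearman's rho across the 47 members, which share the 4 arrays, was 0.15 in Phc2 L307R and 0.21 in wild type, against 0.40 and 0.50 over all genes. Sema4g and Efna2, with 24 and 25 CpG, stayed between 0.17 and 0.57 in both genotypes. Whether their windows cover the CpG-rich start is unknown, since the probes could not be placed on the sequences. Genes are not independent replicates, and these values are descriptions.

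**Figure D2:**
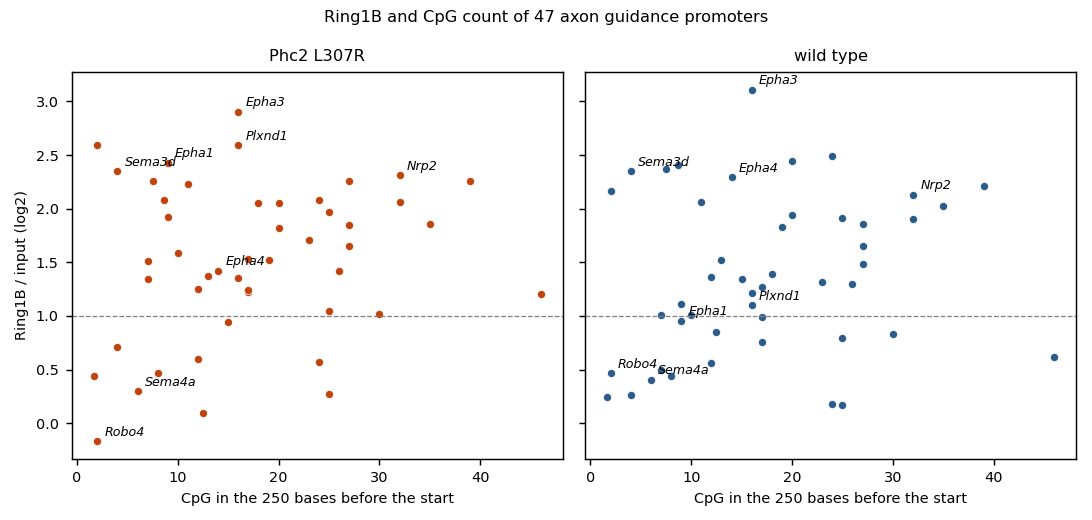
Ring1B level (log2, vertical axis) against the number of CpG in the 250 bases before the start, for 47 members, with Phc2 L307R on the left and wild type on the right; the dashed line is the bound threshold. Robo4 with 2 CpG lies lowest in Phc2 L307R, while Sema3d with 4 CpG lies at 2.35 in both genotypes.

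Netrins gave the highest wild-type promoter. Ntn1 encodes netrin-1, the secreted cue of the ventral midline, and its window on chromosome 11 (68200610 to 68201197, build not given) held probes at 2.45, 2.87 and 2.47 in Phc2 L307R, against 3.09, 3.47 and 2.96 in wild type. The means were 2.597 ± 0.24 in Phc2 L307R and 3.17 ± 0.27 in wild type (SD over 3 probes). All 3 probes lay lower in Phc2 L307R, by nearly the same amount, and no Phc2 L307R probe of the window reached the lowest wild-type one. The lower value holds for this window only. The next probes along the chromosome stood at 2.90 and 2.57 in Phc2 L307R, against 2.02 and 2.08 in wild type. Over all probes the mean was 1.41 in Phc2 L307R and 1.49 in wild type. The difference was -0.58 ± 0.08, which did not reach the size rule in these values. With the other wild-type values, those of the deposited tables, it was -1.77 in the same window. Windows at or above 1 ran without a break over 2571 bp in Phc2 L307R and over 4207 bp in wild type. The Phc2 L307R stretch ended at probes of 0.63 and 0.61, and probes beyond them reached 1 again. In all, 18 of 33 probes reached 1 in Phc2 L307R, against 23 in wild type. Ntn4, a netrin of basement membranes, was lower in both genotypes, at 1.42 in Phc2 L307R and 1.30 in wild type.

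The netrin receptors of the Unc5 family had medians of 1.78 in Phc2 L307R and 1.482 in wild type. All 4 were bound in Phc2 L307R and 3 in wild type. Unc5d had 2.22 ± 0.75 in Phc2 L307R and 1.73 ± 0.36 in wild type, and Unc5b, which also guides vessels, had 1.84 ± 1.32 and 1.65 ± 0.93. Unc5c had 1.71 and 1.32. Unc5a was lowest, at 1.04 in Phc2 L307R and 0.80 in wild type. All 4 differences were above 0, from 0.20 to 0.48, and each lay within the SD over its own probes. In the window highest in Phc2 L307R, 1710 bp from that highest in wild type, Unc5d had 0.24 in wild type. The difference there was 1.98 and met the size rule, in a window chosen by its Phc2 L307R value. After normexp background correction the differences of all 4 genes were below 0, from -1.25 for Unc5b to -0.11 for Unc5d, and Unc5b was lower by the size rule.

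EphA receptors held the second member above 3 and the widest range of differences. Epha3, a receptor of ephrin-A ligands, had probe values of 2.79, 3.40 and 2.53 in Phc2 L307R, against 2.99, 3.38 and 2.96 in wild type. Its level was 2.90 ± 0.45 in Phc2 L307R and 3.11 ± 0.23 in wild type, on chromosome 16 (63806510 to 63806809). The probes of the genotypes overlapped, and the difference of -0.21 was smaller than its SD over the probes, 0.23. The same window was the highest in each genotype, and enrichment ran over 3375 bp in Phc2 L307R and 3999 bp in wild type. With the deposited tables the difference was -1.23. Both differences are those of this window, and the distances below are from its centre. From -2.20 to -1.82 kb, 3 probes stood at 2.325, 2.87 and 2.84 in Phc2 L307R, against 1.24, 1.66 and 1.55 in wild type. From 0.35 to 0.66 kb, 3 probes stood at 1.58, 0.57 and 0.86 in Phc2 L307R, against 2.59, 1.70 and 1.51 in wild type. Over all probes the mean was 1.29 in Phc2 L307R and 1.27 in wild type.

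Epha4, which binds ephrins of both classes, had the lowest difference of all 54. Its probes stood at 1.57, 1.45 and 1.25 in Phc2 L307R, against 2.38, 2.37 and 2.12 in wild type. The groups of probes did not overlap, and the difference was -0.87 ± 0.05, a level 0.548 times that of wild type, short of the 2-fold rule. All 3 probes were well above background in both channels on both arrays, and the value tables gave -0.71. The place of the peak differed, however: the highest Phc2 L307R window lay 3424 bp away, at 1.82 against 1.30 in wild type. Only its middle probe had input well above background in both genotypes, at 1.125 in Phc2 L307R and 1.80 in wild type. Its outer probes stood at 2.39 and 1.945 in Phc2 L307R, against 0.38 and 1.72 in wild type. The lower value is given for the window reported first, and over all probes the mean was 0.91 in Phc2 L307R and 1.09 in wild type.

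Epha1 went the other way and was 1 of 2 members that met the size rule, the other being Plxnd1, whose call rested on a spot without a measured ratio. Its probes stood at 3.45, 1.57 and 2.27 in Phc2 L307R, against 1.59, 0.29 and 0.98 in wild type, on chromosome 6 (42304231 to 42304580). Every probe was higher in Phc2 L307R, by 1.47 ± 0.33 on average, a 2.78-fold ratio. Enrichment ran over 2729 bp in Phc2 L307R and 581 bp in wild type, and 11 of 35 probes reached 1, against 2 in wild type. The value tables gave 1.30, and probes well above background alone gave 1.44. In the window highest in wild type the difference was 0.40, with 1.60 in Phc2 L307R and 1.19 in wild type. Beside this, 1 of the 3 window probes had input not well above background in each genotype.

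The remaining EphA receptors lay between these. Epha7 had 2.08 ± 0.35 in Phc2 L307R and 2.49 ± 0.85 in wild type, with 30 and 28 of 47 probes at or above 1, so its domain was wide in both. Epha5 had 2.05 and 1.94, Epha2 1.92 and 1.11, Epha10 1.24 and 1.27, and Epha6 0.95 and 1.35. Epha8 was the lowest in wild type, at 1.202 in Phc2 L307R and 0.62 in wild type. The whole EphA family thus counted 8 bound promoters of 9 in Phc2 L307R and 7 in wild type, with medians of 1.92 and 1.35 and a median difference of -0.03.

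All 5 EphB receptors were bound in both genotypes. Ephb2 stood highest in wild type, with 1.82 ± 0.17 in Phc2 L307R and 2.45 ± 0.39 in wild type. Its probes of 1.79, 2.00 and 1.66 in Phc2 L307R lay below the wild-type ones of 2.90, 2.25 and 2.19, and the difference was -0.63 ± 0.43. The other 4 lay from 1.25 to 1.66 in Phc2 L307R and from 1.01 to 1.49 in wild type. Among them Ephb1 had the highest difference, 0.57 ± 1.04, which its probes did not share, and Ephb6, a receptor without kinase activity, had 0.17 ± 0.83.

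The ephrin ligands ranged from unbound to above 2. Of the 7 ephrin promoters, 3 A-class and 3 B-class ones were bound in Phc2 L307R, against 1 and 2 in wild type. Efna5 had the highest A-class level, at 2.06 ± 0.40 in Phc2 L307R and 1.90 ± 0.38 in wild type, with a difference of 0.16 ± 0.06. Efnb2, the ephrin of arteries and a partner of Ephb4, had 2.25 ± 0.14 in Phc2 L307R and 1.86 ± 0.13 in wild type. Its 3 Phc2 L307R probes all lay above the wild-type ones, a difference of 0.40, but the value tables gave -0.57. Input was not well above background at all 3 of these probes in Phc2 L307R and at 2 in wild type. With only probes well above background the difference of Efnb2 was -0.19, and after normexp it was -0.23. Efna4 had a difference of 1.01 without meeting the rule, and 1 of its wild-type spots had its ratio set to 0 by the scanner software, so that spot holds no measured ratio. Over the 2 measured probes the means were 0.89 in Phc2 L307R and 0.69 in wild type, a difference of 0.20. Efna1 had 1.22 and 0.99, Efnb1 1.38 and 1.52, and Efnb3 1.16 and 0.54. Efna2 was unbound, at 0.27 and 0.17.

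Class 3 semaphorins, the secreted group, had higher medians than the pooled group of classes 4 to 7, whose classes were not compared singly. Of 6 class 3 promoters, 4 were bound in Phc2 L307R and 5 in wild type, with medians of 1.80 and 1.59. In the pooled group Sema6a and Sema6d lay above these medians in both genotypes, and Sema5b in wild type only. The other members of that group lay below them. Sema3a, the repellent that acts through Nrp1, had probe values of 2.99, 2.45 and 2.34 in Phc2 L307R, against 2.49, 2.19 and 1.82 in wild type. The mean was 2.59 ± 0.35 in Phc2 L307R and 2.17 ± 0.34 in wild type, and the difference of 0.43 ± 0.14 turned to -0.33 in the value tables. Sema3d had 2.35 in each genotype, and Sema3c had 2.26 and 2.21, with windows above 1 over 4141 bp in both. Sema3e, the ligand of Plxnd1, had 1.34 and 1.01. In the window highest in wild type, 1444 bp away, Sema3e had 0.79 in Phc2 L307R and 1.55 in wild type. Its windows at or above 1 ran over 793 bp in Phc2 L307R and 2409 bp in wild type. Sema3f lay at the threshold, with 0.93 and 1.02, and Sema3g below it, with 0.47 and 0.44.

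Among the 9 semaphorins of classes 4 to 7, 4 were bound in Phc2 L307R and 3 in wild type, and the medians were 0.71 and 0.76. The bound ones were Sema6d (2.26 in Phc2 L307R and 2.37 in wild type), Sema6a (2.26 and 2.24) and Sema5b (1.52 and 1.83) in both genotypes, with Sema7a (1.53 and 0.76) in Phc2 L307R. All class 4 members were unbound: Sema4a had 0.30 and 0.41, Sema4d, a ligand of Plxnb1, 0.44 and 0.25, Sema4f 0.71 and 0.26, and Sema4g 0.57 and 0.18. Sema6b had 0.10 and 0.85, the lowest difference of these classes at -0.76 ± 0.23. It was below the bound threshold in both genotypes and so had no call, and all its window probes were well above background. In the value tables Sema6b and Sema5b reached -1.13 and -1.02.

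**Figure D3:**
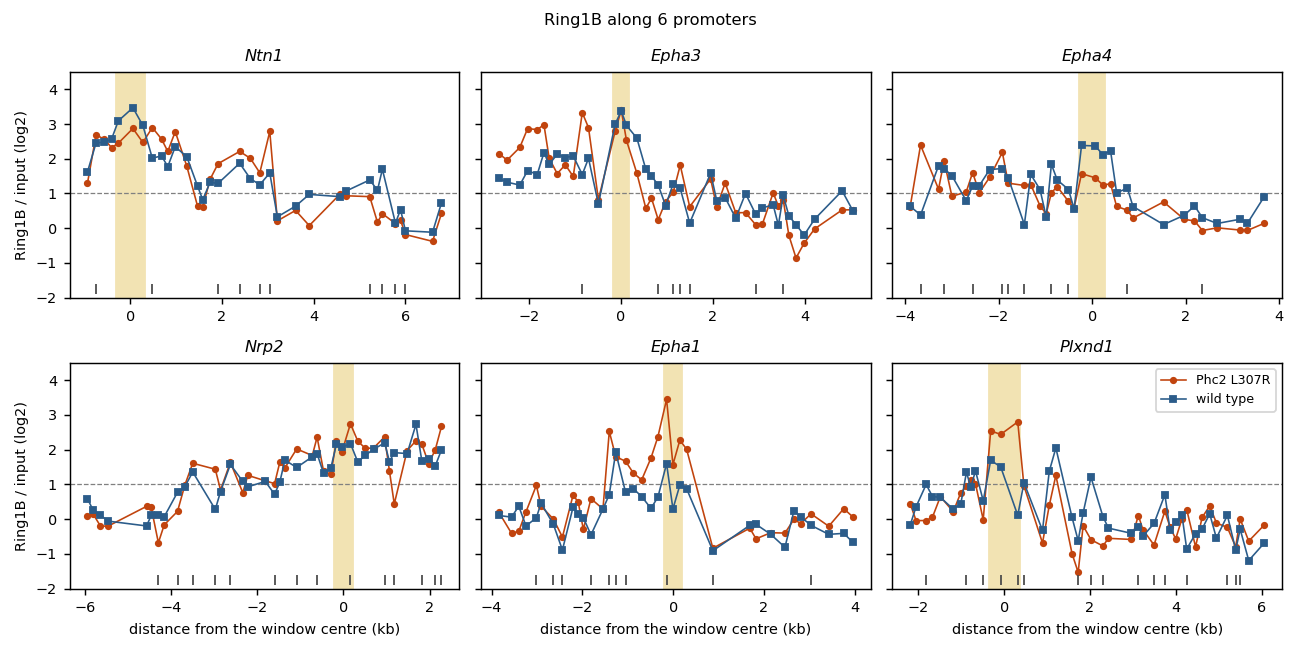
Ring1B over input (log2, vertical axis) at each probe of 6 promoters against the distance from the window centre (kb, along increasing chromosome position, not relative to the transcription start); circles are Phc2 L307R, squares wild type, the shaded band is the 3-probe window, the dashed line is 1, and ticks at the bottom mark probes whose input was not well above background in either or both genotypes. Ntn1 and Epha4 lie lower in Phc2 L307R in the window, Epha1 lies higher over several neighbouring probes, and Plxnd1 lies higher at the window probes but not beyond them; its wild-type window value at 0.11 is a spot set to 0 by the software.

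Both neuropilins, the ligand-binding partners of plexins for class 3 semaphorins, were bound in both genotypes over long stretches. Nrp2 had 2.31 ± 0.41 in Phc2 L307R and 2.13 ± 0.06 in wild type, and its enrichment ran over 6014 bp in Phc2 L307R and 3932 bp in wild type. Yet nearly as many of its 40 probes reached 1 in each, 27 in Phc2 L307R and 26 in wild type. The means over all its probes were 1.315 and 1.26. Nrp1, which also serves as a co-receptor of vascular growth factors, had 2.23 ± 1.36 and 2.06 ± 1.21, with stretches of 4307 and 4572 bp. The wide SD of Nrp1 came from 1 probe, at 3.79 in Phc2 L307R and 3.45 in wild type, beside 2 probes between 1.28 and 1.51. The difference was 0.18 ± 0.36 for Nrp2 and 0.17 ± 0.15 for Nrp1.

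The plexin receptors had medians of 1.02 in Phc2 L307R and 0.83 in wild type. Of 5 promoters, 3 were bound in Phc2 L307R and 2 in wild type. Plxnd1, a receptor of Sema3e in vessels, met the size rule with a difference of 1.49 ± 1.04 on chromosome 6 (115959386 to 115960061), but 1 of its wild-type spots had its ratio set to 0 by the scanner software and holds no measured ratio. The 2 measured probes stood at 2.54 and 2.44 in Phc2 L307R, against 1.69 and 1.503 in wild type. They differed by 0.85 and 0.93, short of the rule. With all spots set to 0 left out before the windows were chosen, an alternative added after the values were seen, the difference was 0.56 and Plxnd1 had no call. Over all 42 probes the mean was 0.14 in Phc2 L307R and 0.23 in wild type. In the window input was not well above background at 2 probes in Phc2 L307R and at 1 in wild type, where 1 probe was also dim in the immunoprecipitate. With probes well above background alone the difference was 0.23, with normexp background correction -0.55, and with the deposited values 0.77. Plxna2 had 2.05 ± 1.57 in Phc2 L307R and 1.39 ± 0.16 in wild type. Plxnb1, Plxna1 and Plxna3 lay from 0.60 to 1.02 in Phc2 L307R and from 0.56 to 0.83 in wild type.

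Slit2 and Slit3 were bound in both genotypes and Slit1 in neither. Slit2 had the closest match between genotypes of the 3 Slit promoters in this window, with probe values of 2.02, 2.01 and 1.88 in Phc2 L307R, against 1.88, 2.00 and 1.85 in wild type, a difference of 0.06 ± 0.07. Elsewhere on the same promoter, in the window highest in wild type, Slit2 had 0.94 in Phc2 L307R and 2.23 in wild type, at a distance of 2122 bp. Slit3 had 1.86 and 2.02, and Slit1 had 0.73 and 0.54. Of the Robo receptors, Robo2, which mediates repulsion from Slits in the brain, had 2.08 ± 0.31 in Phc2 L307R and 2.40 ± 0.61 in wild type, with the same highest window in each. Robo4, the Robo receptor of endothelial cells, was the lowest of all 54 in Phc2 L307R, at -0.16 ± 0.39, against 0.47 ± 0.35 in wild type.

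A few of these genes were tiled at more than 1 place, and at Slit2, Slit3 and Sema6d only 1 of the places was bound. Slit2 had 1.97 in Phc2 L307R and 1.91 in wild type at its first region, and 0.42 and -0.18 at another 231 kb away. Slit3 had 1.86 and 2.02 at one, and 0.28 and -0.29 at the other, 487.6 kb away. Sema6d had 2.26 and 2.37 against 0.39 and 0.24 over a gap of 35 kb. In Efna5 and Epha5 the weaker region passed 1 in Phc2 L307R, at 1.28 and 1.06, and not in wild type, at 0.58 and 0.43. In all, 8 of the 54 genes had a pair of regions, and the higher one in each pair was the same in both genotypes.

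**Figure D4:**
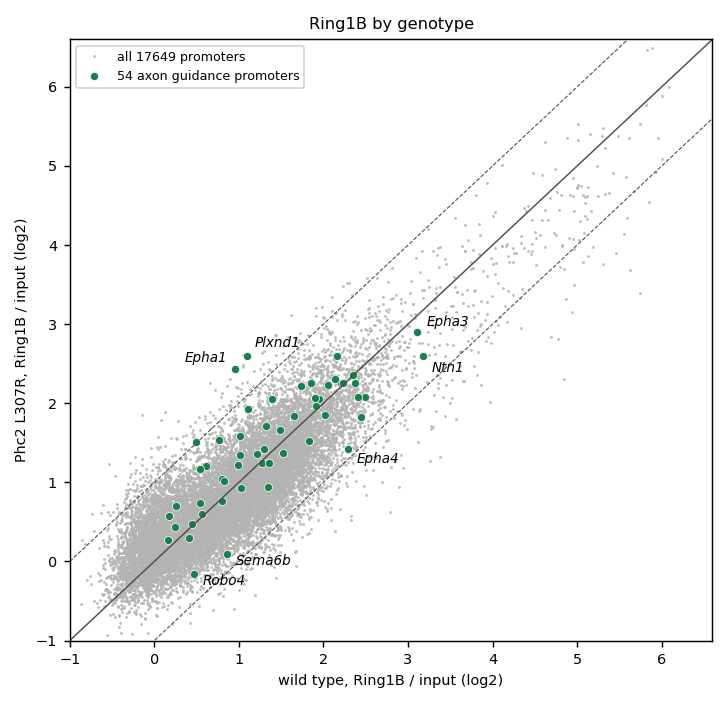
Window means of Ring1B over input (log2) in Phc2 L307R (vertical axis) against wild type (horizontal axis) for all 17649 promoters in grey and the 54 axon guidance promoters in green; the solid line marks equal values and the dashed lines a difference of 1. The members lie below the highest promoters of the arrays, with Epha1 and Plxnd1 (1 wild-type spot set to 0 by the software) past the upper dashed line and no member past the lower one.

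Between genotypes most members differed little. By the size rule 0 of 54 were lower in Phc2 L307R, where 1.54% of all promoters were, and 2 were higher, where 0.839% of all promoters were. Without spots set to 0 by the software Epha1 alone was higher, against 0.782% of all promoters. Counts of 0 and 2 among 54 are too small to set the members apart from those shares. The median difference was 0.13 over the 54, with 36 above 0 and 18 below, against -0.05 over all promoters and -0.14 over promoters bound in either genotype. Over 838 olfactory receptor promoters, a list of weakly occupied ones given for scale, it was 0.33, with 710 above 0 and 128 below. Their median levels were 0.50 in Phc2 L307R and 0.13 in wild type. In 38 of the 54 the difference was smaller than its SD over the 3 probes. The median difference was 0.11 over 27 ligands and 0.17 over 27 receptors. Of the 54 members, 8 were bound in Phc2 L307R alone (Epha1, Epha8, Sema7a, Unc5a, Plxnb1, Efna1, Efna4 and Efnb3) and 2 in wild type alone (Epha6 and Sema3f). Over all promoters these counts were 976 and 2067 of 17649, and over the olfactory receptor promoters 57 and 0 of 838. All 8 members bound in Phc2 L307R alone had at least 1 window probe not well above background, as did 1 of the 2 and 43 of the 54 members. Several members lay close to the threshold in wild type, with Efna1 at 0.99 and Epha1 at 0.96 just under it, and Sema3e at 1.01 just over it.

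Members with more Ring1B in wild type had lower differences. Over the 14 members at or above 2 in wild type the median difference was -0.14, against -0.30 over 1451 such promoters on the arrays. Over the 21 members from 1 to 2 in wild type it was 0.16, against -0.18, and over the 19 below 1 it was 0.19, against 0.07. These bins use the wild-type values on both sides, so a high wild-type value by itself pulls the difference down.

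Weak input signal moved with the direction of these differences. In the members' windows 46.9% of 162 probes had input not well above background in Phc2 L307R and 28.4% in wild type, compared with 37.8% and 23.8% in the windows of all promoters. The 43 members with at least 1 dim probe had a median difference of 0.18 with 32 above 0, whereas the 11 without one had -0.21 with 4 above 0. Both higher calls were in the first of these sets. With only probes well above background, 28 members were bound in Phc2 L307R and 30 in wild type, where 22.6% and 33.2% of all promoters were. The median difference was then -0.07 over the members and -0.14 over all promoters. Part of this setting's effect is its own construction, since it leaves other probes for the windows, and the part of input strength in the result was not tested.

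**Figure D5:**
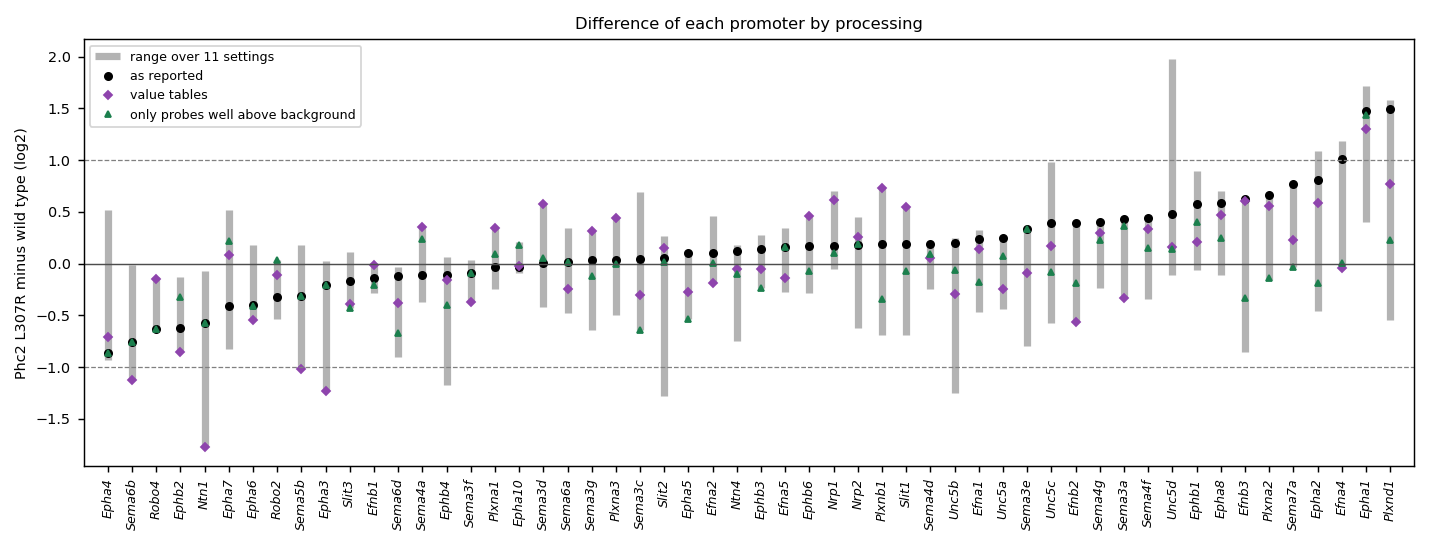
Difference of each of the 54 promoters (Phc2 L307R minus wild type, log2, vertical axis), ordered by the reported value; black circles are the reported values, diamonds the value tables, triangles only probes well above background, and grey bars the range over 11 settings. Most bars cross 0, while that of Epha1 lies wholly above it and those of Ntn1, Ephb2 and Robo4 wholly below.

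Across 11 settings of the processing, 7 members kept 1 sign. Epha1 was higher in Phc2 L307R in all 11, from 0.40 to 1.72. Efnb1, Ephb2, Ntn1, Robo4, Sema6b and Sema6d were lower in all 11, with ranges that came as near to 0 as -0.01 for Sema6b and -0.07 for Ntn1. In wild type the deposited tables gave more than the scanner ratios at 37 of the 54 windows, by a median of 0.17, and by 1 or more at 3. With these values 4 members were lower by the rule (Epha3, Ntn1, Sema5b and Sema6b), where 3.5% of all promoters were, and Epha1 alone was higher, where 0.368% were. All settings use the same Phc2 L307R arrays and are no repeats of the experiment.

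The peaks of Ring1B often fell at different places in the genotypes. The highest windows of the genotypes overlapped at 31 of the 54 members, 57.4%, and at 65.4% of all promoters. Among promoters bound in both genotypes they overlapped at 20 of 33 members and at 80.5% of 5954 promoters. The members were tiled by more probes, as given above, and the part of this in the difference was not tested. Over all probes of a promoter the correlation between the genotypes ran from 0.35 for Sema4a to 0.90 for Unc5b, with 0.86 for Ntn1, 0.85 for both neuropilins and 0.59 for Epha4, over 20 to 85 probes that share the 2 arrays.

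Further genes of the axon guidance pathway were bound in part. Of 53 such genes listed for this pathway 43 had a window. Of these, 26 were bound in Phc2 L307R and 30 in wild type, where 39.3% and 45.4% of all promoters were. The medians were 1.29 and 1.41, and the median difference was -0.08. Ntng2, a membrane-anchored netrin relative, stood highest, at 3.41 ± 0.84 in Phc2 L307R and 3.58 in wild type. Rgma, a ligand of neogenin, had 2.65 and 2.73, and Dpysl5, a collapsin response mediator, 2.03 and 2.53. By the size rule 0 of the 43 were lower, where 1.54% of all promoters were, and 1 was higher, where 0.839% were. Counts of 0 and 1 are too small to set the list apart from those shares. The gene called higher was Flrt3, a ligand of Unc5 receptors, with 3.37 ± 1.07 in Phc2 L307R and 2.33 in wild type.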

How the data were processed

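Ring1B ChIP-on-chip values of 4 arrays were used, 2 of Phc2 L307R and 2 of wild type, 1 per genotype on each of 2 designs with 0 shared probes. Genotype was taken from the labels. Per the labels, DNA was amplified with T7 RNA polymerase, with input in Cy3 and immunoprecipitate in Cy5 and no dye swap. Per the file headers, the deposited intensity values come from Feature Extraction 10.7.3.1 (Agilent), which subtracted background, detrended the signals and normalized the dyes linearly. The deposited scanner ratio is log10 of Cy5 over Cy3, set to 0 by the software at 79 to 2729 probes per array. Comparison with these ratios showed the deposited tables to be log10 values too, with medians per column from -0.0615 to -0.0342. The processing behind the wild-type tables is unknown. No source used here gives the genome build of the probes.

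Control spots and outlier spots were left out, ratios were converted to log2 and each array was centred on its median, so a shift common to every promoter is removed. Windows held 3 probes within 2000 bp. Stretches joined overlapping windows at or above 1. The flags for signal well above background are those of the scanner software. Alternatives were normexp (offset 50), loess, equal spread of arrays, the value tables, dim probes left out, 5 probes per window, windows chosen in 1 genotype, the mean over all probes, a bound threshold of 1.5 and a 1.5-fold rule. Leaving out spots set to 0 by the software was added after the data were seen. The number of arrays limits the precision. Named genes are all members at or above 2 in either genotype, those meeting the size rule and the extremes of each family in level and difference. Other members are named to complete their family, after their values were seen. The members, lists and rules were chosen with earlier results of these data known. Steps were tested on simulated data. All 54 names matched current RefSeq symbols on the same chromosome. Tools were Python 3.11.15, numpy 2.4.6, pandas 2.3.3, matplotlib 3.10.9, R 4.3.3 and limma 3.58.1.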

Additional observations from a re-analysis of the deposited data

How the results depend on the processing

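No paired analysis was possible because the title numbers stand for array designs with 0 probes in common, so no promoter has a pair of arrays of 1 genotype. The median difference stayed within 0.41, the median SD over the probes of a window, under all 10 alternatives that give one, but its sign turned under 7 of them, with values from -0.20 after normexp to 0.19 for windows highest in Phc2 L307R. After normexp the members bound numbered 21 in Phc2 L307R and 26 in wild type, where 13.1% and 24.8% of all promoters were. With the mean over all probes 8 were bound in each genotype, where 4.89% in Phc2 L307R and 5.7% in wild type were. At a threshold of 1.5, 29 were bound in Phc2 L307R and 22 in wild type, where 18.6% and 22% of all promoters were. The members lower by the size rule numbered 1 after normexp (Unc5b), 4 in the value tables, 2 with the window highest in wild type (Ephb4 and Slit2) and 2 with a 1.5-fold rule (Epha4 and Ephb2). In that order, the shares of all promoters called lower were 1.73%, 3.5%, 2.65% and 6.87%. The members higher numbered 0 after normexp, with the window highest in wild type and with the mean over all probes. The shares of all promoters called higher were then 0.051%, 0.181% and 0.0981%. The members higher numbered 1 in the value tables, with only probes well above background and with windows of 5 probes and, chosen after seeing the data, without spots set to 0 by the software (Epha1 each time), 3 after loess, 4 for windows highest in Phc2 L307R, and 5 with the 1.5-fold rule. In that order, the shares of all promoters called higher were 0.368%, 0.167%, 0.267%, 0.782%, 0.822%, 1.67% and 3.25%. A window chosen in 1 genotype favours that genotype by construction, and the other causes were not tested. Plxnd1 turned to -0.55 after normexp and to -0.087 with the mean over all probes. Of the 540 values of single members under the alternatives, 421 moved by less than the SD over their probes or held their call, 109 moved by more, and 8 lost their call without a change of sign. With 1 array per genotype, no size of difference can be told from differences between arrays, and weak input at many probes limits the precision further.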
